A study of Mus musculus with 4 samples.

Results

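The macrophages described here were the tumour macrophages with the most Hilpda, Ndrg1 and Adm RNA, 3 transcripts known to rise in low oxygen. They were taken from single-cell RNA profiles of CT26 tumours, which grow from an implanted mouse colon carcinoma line. Droplets were kept as cells when they showed 200 or more genes and when mitochondrial transcripts made up less than 15% of their unique molecular identifiers (UMIs, 1 per captured RNA molecule). A cell counted as a macrophage with at least 10 UMIs of the complement genes C1qa, C1qb and C1qc per 10000 UMIs and at most 1 UMI of Cd3d and Cd3e. Cells with 2 or more UMIs of Mki67, Top2a and Birc5 per 10000 (dividing cells) and cells with 2 or more UMIs of Lyve1, Cd209f and Cd209g (a resident type) were removed. Of the 9104 macrophages left, the 10% with the highest sum of Hilpda, Ndrg1 and Adm per 10000 UMIs were called hypoxic macrophages, 910 cells among 27447 kept cells and 29092 barcodes. The other 8194 macrophages served as the comparison. The levels of the 3 genes in the cells they chose are given as a description with no test, and each gene was tested only in cells chosen by the other 2. The word hypoxic names a range of transcript levels, since oxygen itself was not measured.

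The mice were Balb/c, 9 weeks old, and carried CT26 tumours from which CD45+ leukocytes had been isolated with magnetic beads. In 1 group the mice were given liproxstatin-1 for 8 days, a compound that blocks ferroptosis by halting the spread of lipid peroxides, and the other group was the control. What the control mice received is not given in the sources used here, and each group had 2 libraries made with a 10x Genomics droplet kit. Whether replicate libraries came from different animals is not stated in the labels, so spread between libraries may be technical. The treatment test within hypoxic cells is set against that spread alone. Tests with library as a block are set against how much the difference between the 2 macrophage populations varied from library to library, which may be technical too. The libraries held between 83129874 and 168597163 UMIs, and the hypoxic cells of 1 library together held between 1928688 and 7688474. Pairs of libraries shared 4 to 22 barcodes over all cells and 0 among hypoxic macrophages.

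When oxygen is plentiful, prolyl hydroxylases mark the alpha subunits of the hypoxia-inducible factors (HIF) for destruction. In low oxygen the subunits persist, pair with their beta partner and bind short DNA elements with the core ACGTG or GCGTG near target genes. The targets carry glucose into the cell, run glycolysis, call in vessels and feed back on the hydroxylases. Solid tumours outgrow their vessels, and macrophages that enter poorly perfused areas are known to switch on this program together with arginase.

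Promoter windows that hold a match show what those elements look like. The 250 bases before the RefSeq start (build GRCm38.p6) are printed for Adm, one of the 3 genes of the rule, and for Egln3 and Bnip3, members of the hypoxia list described next. The windows were chosen for their matches, and those of Hilpda, Eno2 and Mmp12 held neither motif. Of the 2 rule genes with a window, 0 held ACGTG and 1 held GCGTG. Capitals mark each ACGTG or GCGTG read on either strand, so a GCGTG of the opposite strand appears as CACGC.
Adm, chr7:110627407-110627656, plus strand: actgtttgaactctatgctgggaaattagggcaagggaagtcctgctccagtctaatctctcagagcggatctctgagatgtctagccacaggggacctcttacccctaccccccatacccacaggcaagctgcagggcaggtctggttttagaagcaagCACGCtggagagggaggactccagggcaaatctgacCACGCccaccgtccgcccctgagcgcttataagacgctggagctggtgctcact
Egln3, chr12:54203875-54204124, minus strand: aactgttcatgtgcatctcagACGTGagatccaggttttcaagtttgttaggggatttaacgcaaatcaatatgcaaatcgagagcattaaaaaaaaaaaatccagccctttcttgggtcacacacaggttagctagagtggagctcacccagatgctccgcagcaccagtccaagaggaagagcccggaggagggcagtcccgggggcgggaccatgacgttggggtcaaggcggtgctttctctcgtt
Bnip3, chr7:138909507-138909756, minus strand: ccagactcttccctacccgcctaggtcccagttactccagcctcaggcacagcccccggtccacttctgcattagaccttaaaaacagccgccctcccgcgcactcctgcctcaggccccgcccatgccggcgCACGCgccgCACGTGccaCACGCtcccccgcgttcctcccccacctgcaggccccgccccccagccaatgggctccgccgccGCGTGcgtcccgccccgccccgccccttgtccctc
The Adm window held 2 GCGTG and no ACGTG, the Egln3 window 1 ACGTG, and the Bnip3 window 2 ACGTG matches, which are both strands of 1 CACGTG, and 3 GCGTG. Of the 32 genes in the hypoxia list, 25 had a promoter window, and 16 of them (64.0%) held ACGTG, against 16.6% of all 27025 windows of the same length. GCGTG was found in 17 of the 25 (68.0%) and in 28.2% of all windows. All 17 genes of the glycolysis list had a window, and 5 (29.4%) held ACGTG and 7 (41.2%) GCGTG. Of the 20 genes named below for the highest levels in hypoxic cells, 14 had a window. ACGTG was found in 5 of the 14 (35.7%) and GCGTG in 4 (28.6%), the latter close to the 28.2% of all windows. Of the 10 named for the lowest levels 7 had a window, of which 0 held ACGTG and 1 held GCGTG. A match describes the letters of a window and is no evidence of binding.

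The rule score ran as a gradient with no gap at its threshold. The lowest member had 8.95 UMIs of the 3 genes per 10000 and the fifth lowest 8.98, whereas the highest cell outside had 8.92 and the fifth highest 8.89. The median was 15.5 in hypoxic and 0.725 in other macrophages, of which 30.3% had no UMI of the 3 genes. Within 1 per 10000 of the threshold lay 101 members and 122 other macrophages. In 103 members (11.3%) the score rested on fewer than 5 UMIs, and the shallowest member had 520 UMIs in all. Thinning to 10000 UMIs used only cells with at least that many, here 7454 macrophages, and shallower cells were left out. Those left out held 36 members in control 1, 57 in control 2, 71 in liproxstatin 1 and 44 in liproxstatin 2. Of the 770 cells chosen after thinning, 644 were also members.

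Hilpda, which encodes a lipid droplet protein that slows fat breakdown, was detected in 92.7% of hypoxic macrophages. Ndrg1, a stress-response gene, was detected in 90.9%. Adm, which encodes the vessel-dilating peptide adrenomedullin, was detected in 32.7%. Hilpda supplied 54.8% of the 3 genes' UMIs in members, Ndrg1 41.2% and Adm 4.04%, so the first 2 chose nearly all cells. In other macrophages the detected shares were 43.3%, 60.2% and 2.86%. Hilpda lies at chr6:29272488-29275446, Ndrg1 at chr15:66929318-66969640 and Adm at chr7:110627661-110629820 (GRCm38, GENCODE M21). Hilpda is not limited to macrophages: in T cells thinned to the same depth it was detected in 52.6% to 70.1%. Adm was detected in 0% to 0.917% of thinned T cells, in 1.05% to 2.32% of thinned other macrophages and in 27.0% to 35.4% of thinned hypoxic macrophages. The threshold was passed by 94 of 1507 T cells (6.24%) and by 2132 of all 18343 kept cells outside the macrophage gate (11.6%).

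Each rule gene was then left out of the rule in turn, and its level was read in the 910 cells chosen by the other 2. Levels are counts per 1000000 (CPM) of the UMIs summed over a population in 1 library, given throughout in the order control 1, control 2, liproxstatin 1 and liproxstatin 2. Cells chosen by Hilpda and Ndrg1 alone held 71.3, 94.4, 54.8 and 45.2 CPM of Adm, against 2.93, 5.0, 2.11 and 3.0 CPM in other macrophages. Every chosen population exceeded the other macrophages of its library by at least 15.1-fold. The log2 fold change of Adm was 4.51 ± 0.12 (SE, 4 libraries; edgeR quasi-likelihood test with library as a block, Benjamini-Hochberg adjusted p = 9.0e-12). Cells chosen without Hilpda held 590, 561, 693 and 485 CPM of it, against 82.7, 95.6, 129 and 96.5 CPM in the rest, with a log2 fold change of 2.69 ± 0.09 (adjusted p = 1.67e-07). Cells chosen without Ndrg1 held 486, 612, 526 and 549 CPM of it, against 92.5, 124, 132 and 131 CPM, with a log2 fold change of 2.34 ± 0.09 (adjusted p = 2.77e-06). For all 3 genes the libraries of the 2 populations did not overlap. The reduced rules found 66.3% of the 910 members without Hilpda, 78.0% without Ndrg1 and 97.6% without Adm.

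The share of macrophages called hypoxic differed more between replicates than between treatments. Hypoxic macrophages were 96 of 1356 macrophages in control 1 (7.08%, exact 95% binomial interval 5.77% to 8.58%) and 218 of 2069 in control 2 (10.5%, 9.25% to 11.9%). They were 319 of 2688 in liproxstatin 1 (11.9%, 10.7% to 13.2%) and 277 of 2991 in liproxstatin 2 (9.26%, 8.25% to 10.4%). Liproxstatin 2 fell between the control libraries, so the groups overlapped. The means were 8.81% ± 2.44 in control and 10.6% ± 1.84 in liproxstatin (SD, n = 2 each), a difference of 1.76 percentage points (two-sided exact permutation test p = 0.6667, where 0.3333 is the smallest p that 2 against 2 allows). With Hilpda left out of the score the groups did not overlap, at 7.08% and 10.4% in control and 10.6% and 10.5% in liproxstatin (exact permutation p = 0.3333), and the same held when doublets were removed as well. The difference was 4.70 percentage points with the top 20% as members and 0.699 with the top 5%. The intervals cover counting error only.

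**Figure D1:**
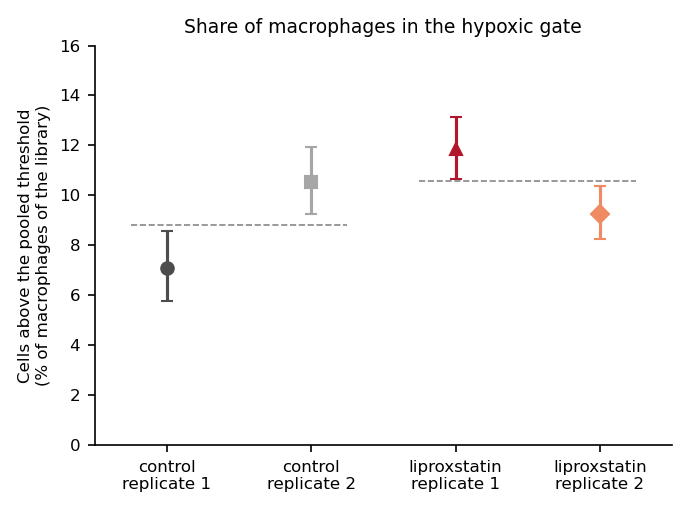
Share of gated macrophages past the pooled threshold (y axis, % of macrophages) in each library (x axis), with exact 95% binomial intervals, and dashed lines at the group means. The control libraries sit at 7.08% and 10.5% and the liproxstatin libraries at 11.9% and 9.26%, so the groups overlap.

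Hypoxic macrophages had fewer UMIs and less mitochondrial RNA than the others in every library. Their median UMI count was 19357, 23693, 23409 and 22348, against 23721.5, 29743, 25213 and 22450.5 in other macrophages, and they had fewer median genes in each library too. The median mitochondrial share was 1.46%, 2.15%, 2.43% and 2.98%, against 2.50%, 3.18%, 3.25% and 3.69%. Cells scored as likely doublets were 0% to 5.02% of hypoxic and 1.75% to 7.92% of other macrophages, and were kept.

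Across all genes, 2665 of 11911 tested were higher in hypoxic macrophages (22.4%) and 2380 were lower (20%), or 42.4% in either direction, in the comparison within libraries (edgeR quasi-likelihood test, adjusted p under 0.05). With a log2 fold change of 1 or more added, 588 genes were higher (4.94%) and 272 lower (2.28%). Fold changes were scaled by trimmed means (TMM), which placed them a median of 0.179 log2 units above those on total UMIs. On total UMIs the split was 1688 higher and 4366 lower, so 27.9% of calls were higher in place of 52.8%, and small differences below depend on this scale. The libraries are the replicates in these tests, and genes used by the rule are left out of all counts. The share of all genes whose libraries do not overlap between the populations was not counted, so a lack of overlap is given as description only. Nos2, Arg1, Hmox1 and Mmp12 are given without a p-value, since they were part of the name proposed for these cells with results known. They remain in the gene counts above and in the counts of their lists below, which are no independent support for them.

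Genes of the HIF response were higher in hypoxic macrophages nearly as a block. Of 29 tested members of the hypoxia list other than the rule genes, 27 were higher and 1 was lower, with a median log2 fold change of 1.69 beside -0.01 over all genes tested. On total UMIs the count was 26 higher and 2 lower. Egln3, the prolyl hydroxylase that marks HIF for destruction and is itself a target, had 33.7, 61.5, 33.6 and 34.9 CPM in hypoxic and 2.50, 5.20, 3.83 and 3.0 CPM in other macrophages. It was high in hypoxic cells of all 4 libraries with no overlap, at a log2 fold change of 3.65 ± 0.11 (adjusted p = 1.88e-17). Slc2a1, the glucose transporter GLUT1, had 364, 389, 353 and 329 CPM against 50.2, 70.0, 66.6 and 67.0 CPM (log2 fold change 2.68 ± 0.11, adjusted p = 3.02e-06). Bnip3, which directs mitochondria to autophagy, had 503, 650, 498 and 466 CPM against 86.1, 127, 95.1 and 90.6 CPM (2.59 ± 0.05, adjusted p = 5.69e-21). Both sets of hypoxic values lay well above the others in every library and varied little among themselves.

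Ero1l, an oxidase that forms disulfide bonds in the endoplasmic reticulum, rose by 2.83 ± 0.07 on the log2 scale (adjusted p = 1.1e-14), from 44.2 to 60.6 CPM in other macrophages to 310 to 406 CPM in hypoxic ones. The repressor Bhlhe40 was higher by 2.72 ± 0.23, the adenylate kinase Ak4 by 2.96 ± 0.15, Ankrd37 by 2.56 ± 0.20 and Ddit4, an inhibitor of mTORC1 signalling, by 2.31 ± 0.21, and all 4 passed the test. The member that was lower was Pfkfb4, a regulator of glycolytic flux, with 8.81, 11.2, 11.2 and 13.6 CPM against 17.0, 19.8, 18.5 and 18.1 CPM (-0.51 ± 0.11, adjusted p = 0.000529). Its relative Pfkfb3 went the other way, at 1.66 ± 0.09. Car9, a carbonic anhydrase widely used to stain hypoxic tumour cells, did not pass (-0.24 ± 0.16, adjusted p = 0.248), with 2.59 to 6.71 CPM in hypoxic and 6.67 to 8.62 CPM in other macrophages.

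Every tested gene of the glycolysis list was higher: 16 of 16 passed, with a median of 1.23, and 16 passed on total UMIs as well. The list has 17 genes, and Aldoa, an aldolase gene, was not found under that name and was not tested. The summed level of the list was 16046, 17153, 14392 and 14839 CPM in hypoxic and 6901, 8351, 7016 and 7566 CPM in other macrophages. Eno2, an enolase best known from neurons, changed most (2.69 ± 0.09, adjusted p = 7.63e-17), with 38.4, 50.7, 34.7 and 36.9 CPM against 7.2, 8.4, 5.96 and 6.80 CPM. The hexokinase Hk2 rose by 1.73 ± 0.13, Pgk1 by 1.59 ± 0.07, the lactate exporter Slc16a3 by 1.48 ± 0.11, and Ldha, which makes lactate, by 1.22 ± 0.05. Pdk1, which keeps pyruvate out of mitochondria, rose by 1.23 ± 0.08. No library broke the order for any of these genes.

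Respiratory genes moved little or downwards. Of 26 nuclear genes of oxidative phosphorylation, 10 were lower and 1, Ndufa2, was higher (median -0.07), and on total UMIs 23 were lower. Sdhb, a subunit of succinate dehydrogenase, had 106, 108, 99.1 and 106 CPM against 189, 192, 164 and 170 CPM (-0.58 ± 0.05, adjusted p = 2.31e-09). Of 12 protein-coding genes of the mitochondrial genome 9 were lower and 1 was higher (median -0.32). The one called higher, mt-Co1, a subunit of cytochrome oxidase, had nearly the same CPM in both populations (5662 against 5581 in control 1) and was not higher on total UMIs, where 11 of the 12 genes were lower. The mitochondrial cutoff of 15% was applied to both populations alike.

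**Figure D2:**
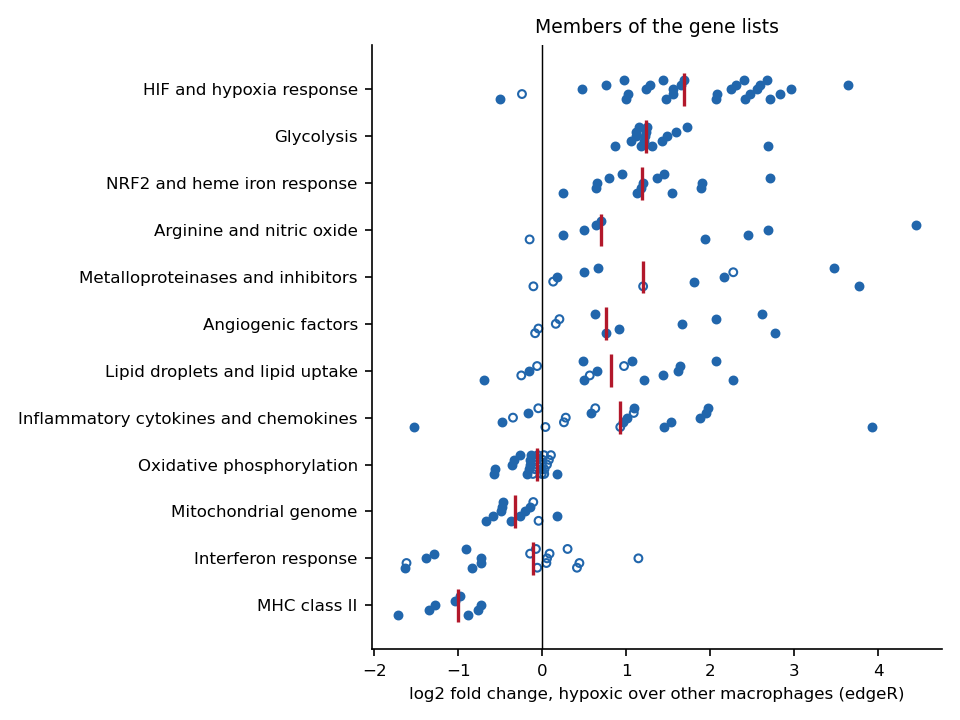
Log2 fold change (x axis) of each tested gene of 12 lists (y axis), hypoxic over other macrophages. Filled points passed an adjusted p under 0.05, open points did not, and the red line is the list median. All HIF, glycolysis and NRF2 points lie above 0 apart from Pfkfb4 and Car9, and all 8 MHC class II points lie below 0.

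Genes that act on vessels and matrix were higher too. Of 11 tested angiogenic genes 7 were higher and 0 lower (median 0.76). Vegfa, the main vessel growth factor induced by HIF, had 228, 216, 310 and 280 CPM against 63.2, 36.4, 107 and 90.4 CPM. Hypoxic cells exceeded the others by 2.07 ± 0.26 log2 units (adjusted p = 0.00958), whereas Vegfb was at 0.20 ± 0.09 and did not pass (adjusted p = 0.0624). Thbs1, which restrains vessel growth, was higher by 2.61 ± 0.54 (adjusted p = 0.036), a call that passed in 11 of 16 other settings and was lost when any 1 library was left out (highest adjusted p 0.133). Of 11 metalloproteinase and related genes 7 were higher, Mmp12 among them, and 0 lower (median 1.20). Mmp12, the macrophage elastase, had 2848, 1904, 1511 and 1642 CPM in hypoxic and 178, 156, 177 and 129 CPM in other macrophages, a log2 fold change of 3.78 with no overlap. Mmp13, a collagenase, followed at 2.17 ± 0.09 (adjusted p = 5.14e-07), and the cathepsin Ctsl at 1.80 ± 0.10. On total UMIs the list had 6 higher and 1 lower.

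Both enzymes that compete for arginine were higher in the same population. Arg1, which turns arginine into ornithine and urea, had 2384, 3171, 1680 and 2215 CPM against 287, 570, 360 and 461 CPM. Nos2, which makes nitric oxide from arginine, had 44.1, 77.3, 71.3 and 48.4 CPM against 2.39, 2.01, 4.19 and 3.81 CPM. The log2 fold changes were 2.68 for Arg1 and 4.45 for Nos2, and no library overlapped. The list of arginine and nitric oxide genes held 8 higher and 0 lower of 9 (7 and 1 on total UMIs), with Arg1 and Nos2 counted. Also higher were the second arginase Arg2 at 1.94 ± 0.08 and the arginine carrier Slc7a2 at 2.45 ± 0.22. After thinning to 10000 UMIs, Arg1 was detected in 81.5% to 88.8% of hypoxic cells and Nos2 in 20% to 25%. T cells at the same depth showed Arg1 in 3.66% to 9.38% and Nos2 in 0% to 0.783%, where the median over all T cells, shallow ones included, was 11099 to 13524 UMIs. These T cells were chosen for little C1q RNA, so their shares may understate what free RNA could give. Other macrophages showed Arg1 in 27.9% to 47.5% and Nos2 in 0.708% to 2.68%. Unthinned shares, which include the hypoxic cells under 10000 UMIs, were 69.8% to 83.4% for Arg1 and 20.8% to 31.2% for Nos2. In thinned hypoxic cells Nos2 and Arg1 were found together in 20%, 24.2%, 22.2% and 20.6%. Most cells with Nos2 RNA also had Arg1 RNA, as did most hypoxic cells of any kind, so this shows no link between the 2 genes.

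The heme and oxidant response rose as a whole list. All 14 tested genes of the NRF2 and heme iron list, Hmox1 included, were higher, with a median of 1.19, and 13 were higher on total UMIs. Hmox1, heme oxygenase 1, which breaks heme into iron, carbon monoxide and biliverdin, had 1872, 2765, 1790 and 1638 CPM against 381, 481, 331 and 230 CPM, a log2 fold change of 2.71. Ferritin, which stores iron, was already abundant and was higher still: the heavy chain Fth1 had 30264, 32907, 28052 and 27963 CPM against 12289, 13575, 13095 and 13560 CPM (1.36 ± 0.07, adjusted p = 2.9e-05), and the light chain Ftl1 followed at 1.13 ± 0.05. Slc7a11, the cystine carrier that feeds glutathione synthesis, had 21.3, 35, 53.5 and 46.1 CPM against 7.92, 8.64, 19.0 and 12.7 CPM (1.90 ± 0.10, adjusted p = 2.21e-12). Every one of these values was higher in hypoxic than in other macrophages of the same library.

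Genes of ferroptosis, the process that the drug blocks, were mixed. Of 11 genes that favour it 5 were higher and 2 lower, with a median of 0.26, and on total UMIs 3 were higher and 4 lower. Ptgs2, the cyclooxygenase often used as its marker, was higher by 1.52 ± 0.10 (adjusted p = 6.03e-06), whereas Tfrc, the transferrin receptor that imports iron, was lower (-1.15 ± 0.14, adjusted p = 3.85e-07), with 4.67, 5.59, 11.2 and 6.45 CPM against 23.0, 15.1, 22.1 and 16.6 CPM. Of 11 defence genes 5 were higher and 3 lower. Gpx4, the peroxidase that removes lipid peroxides, was higher by 0.58 ± 0.05 (adjusted p = 1.51e-08), and Fads2, a fatty acid desaturase, was lower (-1.90 ± 0.23, adjusted p = 4.14e-07).

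Of 16 genes of lipid droplets and uptake 10 were higher and 2 lower (median 0.81). The fatty acid carrier Fabp5 was higher by 2.27 ± 0.08, the droplet coat gene Plin2 by 1.64 ± 0.12 and the scavenger receptor Cd36 by 1.62 ± 0.10, and all 3 passed. Plin2 had 707, 851, 783 and 532 CPM against 250, 253, 306 and 231 CPM. Among the lower genes was the lipoprotein gene Apoe (-0.16 ± 0.04), the most abundant member. Apoe supplied most of the summed level of the list, which was 9770 to 11196 CPM in hypoxic and 9418 to 11607 CPM in other macrophages.

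**Figure D3:**
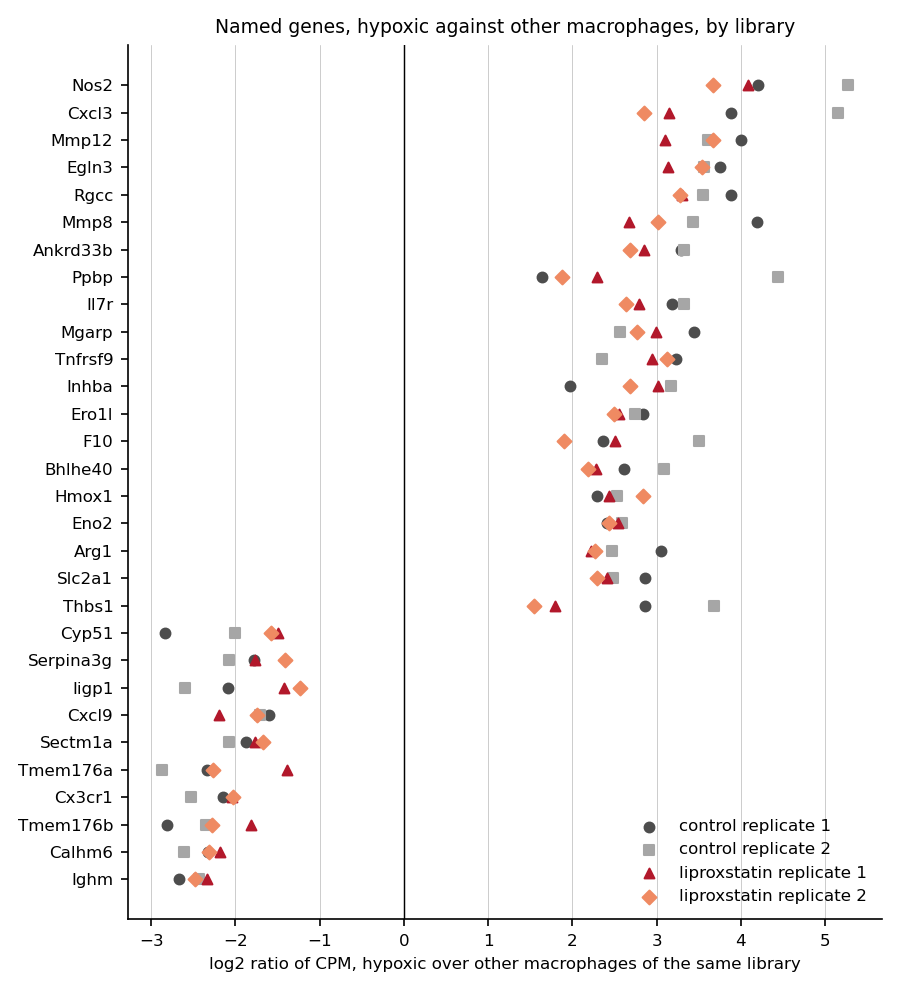
Log2 ratio of CPM in hypoxic over other macrophages of the same library (x axis, total UMIs as the scale) for the 20 highest and 10 lowest named genes (y axis), 1 point per library. The points of each gene lie on 1 side of 0 in all 4 libraries, and control 2 stands far to the right for Ppbp and Cxcl3.

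Antigen presentation was lower throughout. All 8 genes of MHC class II, which shows peptides to CD4 T cells, were lower with a median of -1.01, and all 8 were lower on total UMIs. The summed list gave 4619, 3267, 6204 and 7840 CPM in hypoxic and 10494, 8708, 11445 and 13764 CPM in other macrophages, with no overlap. Ciita, the transactivator that switches these genes on, had 3.63, 5.22, 7.02 and 11.1 CPM against 21.9, 21.4, 27.7 and 32.9 CPM (-1.72 ± 0.12, adjusted p = 2.66e-11). H2-Eb1 was at -1.28 ± 0.15 and H2-Aa at -0.98 ± 0.12, and the H2 genes are a family of similar genes among which reads may be shared.

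Of 18 interferon-response genes 7 were lower and 0 higher (10 lower on total UMIs). Cxcl9, a chemokine that draws T cells, had 332, 206, 246 and 296 CPM against 1007, 676, 1125 and 992 CPM (-1.63 ± 0.13, adjusted p = 0.000997). The transcription factor gene Irf1 was at -0.83 ± 0.10 and passed. Cxcl10 had 99.0, 40.1, 196 and 136 CPM against 429, 326, 367 and 394 CPM and did not pass (adjusted p = 0.0609).

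Inflammatory genes went both ways. Of 21 genes 10 were higher and 3 lower (median 0.93). The neutrophil-attracting chemokine Cxcl2 had 3078, 3040, 3372 and 3076 CPM against 919, 443, 1487 and 1182 CPM (1.95 ± 0.38, adjusted p = 0.0311). Cxcl3, a close paralog, had 239, 838, 329 and 155 CPM against 16.2, 23.6, 37.2 and 21.4 CPM (3.93 ± 0.58, adjusted p = 0.0154). Control 2 stood far above the rest for Cxcl3, and its call passed in 13 of 16 other settings, being lost without control 1, liproxstatin 1 or liproxstatin 2 (highest adjusted p 0.0801). Il1b, the inflammasome product, was at -0.05 ± 0.06 (adjusted p = 0.551) and did not pass. Lower were Ccl7, Ccl12 and Ccl22. Of 13 checkpoint and costimulation genes 5 were higher, among them Cd274, which encodes PD-L1, with 118, 200, 168 and 164 CPM against 60.1, 58.5, 75.1 and 75 CPM (1.46 ± 0.18, adjusted p = 0.00799), and Nt5e, the enzyme CD73 that makes adenosine, at 1.53 ± 0.11. On total UMIs 5 of this list were higher and 5 lower.

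Among general macrophage genes 7 were higher and 5 lower of 13. Cx3cr1, the fractalkine receptor, had 56.0, 37.3, 57.5 and 56.2 CPM against 247, 215, 236 and 229 CPM (-1.99 ± 0.07, adjusted p = 3.1e-16). Adgre1, which encodes the F4/80 antigen, was lower (-0.49 ± 0.06), Cd68 was higher at 0.58 ± 0.05 and both passed. Ccr2, the receptor that brings monocytes into tissue, was lower (-0.83 ± 0.07), and of the 12 monocyte genes 3 were higher. Mrc1, the mannose receptor, hardly differed, with 826, 949, 878 and 800 CPM against 845, 984, 812 and 732 CPM, although the TMM scale called it higher by 0.22 ± 0.04. Its list held 6 higher and 3 lower of 13 on that scale, and 3 and 4 on total UMIs.

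The 20 highest genes under the naming rule held several outside these groups. Rgcc, a regulator of the cell cycle, was higher by 3.62 ± 0.09 (adjusted p = 4.68e-15), with 57.0, 107, 108 and 81.5 CPM against 3.87, 9.20, 11.0 and 8.4 CPM. Inhba, which encodes an activin subunit, was higher by 3.0 ± 0.14, Mgarp, a mitochondrial protein gene, by 3.07 ± 0.11, and Tnfrsf9, the costimulatory receptor 4-1BB, by 3.07 ± 0.12. Ankrd33b was higher by 3.20 ± 0.12 and the coagulation factor gene F10 by 2.78 ± 0.38. Il7r, the receptor of interleukin 7, had 90.7, 94.8, 104 and 69.1 CPM against 10.0, 9.44, 15.1 and 11.1 CPM (3.14 ± 0.16, adjusted p = 3.38e-05). Tnfrsf9 and Il7r are also T cell genes, and in thinned T cells they were detected in 83.5% to 89.4% and 24.8% to 42.3%. Ppbp, a platelet chemokine, was higher by 3.16 ± 0.71 (adjusted p = 0.044, passed in 12 of 16 other settings), with 133 CPM in control 2 and 5.18 to 39.7 CPM elsewhere.

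The 10 lowest genes were led by Ighm, the heavy chain of IgM, with 25.9, 23.1, 20.2 and 20.2 CPM against 165, 124, 102 and 112 CPM (-2.27 ± 0.07, adjusted p = 1.57e-17). Calhm6 (-2.16 ± 0.08), the cation channel genes Tmem176b (-2.03 ± 0.10) and Tmem176a (-1.85 ± 0.21), Sectm1a (-1.65 ± 0.10), the interferon-induced GTPase Iigp1 (-1.59 ± 0.28, passed in 13 of 16 other settings), Serpina3g (-1.55 ± 0.07) and the sterol enzyme Cyp51 (-1.55 ± 0.12) followed Cx3cr1 and Cxcl9 in that set.

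Several lists bear on cell state and stress. Of 18 cell cycle genes 10 were lower and 2 higher (median -0.50), with Mcm3, Mcm5 and Mcm6, subunits of the replication helicase, between -1.26 and -1.16. Dividing cells had been removed by the rule, so this list is cut at its top in both populations. Of 15 integrated stress response genes 5 were higher and 3 lower, with Atf4, its transcription factor, at 1.05 ± 0.07, and of 11 unfolded protein response genes 3 were higher and 3 lower. Of 7 genes induced by glucocorticoids 4 were higher. Of 19 genes of dissociation and heat shock 10 were higher and 0 lower (median 0.49), with Fos at 0.29 ± 0.05 and Ier3 at 1.41 ± 0.14. The part of cell handling in the differences above was not tested.

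Summed markers of several other cell types moved with the population. The summed neutrophil list was 592, 1629, 611 and 379 CPM in hypoxic and 275, 562, 504 and 318 CPM in other macrophages, higher in each library and most in control 2. Of its 10 tested genes 3 were higher, Mmp8, Il1r2 and Trem1, while S100a8 (adjusted p = 0.112) and S100a9 (0.155) did not pass, and Ly6g was at 0 in 3 of 4 hypoxic populations. In a setting added after seeing the data, cells with 10 or more UMIs of S100a8 and S100a9 per 10000, called carriers, were left out. Cells with fewer such UMIs stayed in. The HIF list then had 27 higher and 1 lower, glycolysis 16 of 16, NRF2 14 of 14 and MHC class II 8 of 8 lower. In that setting the neutrophil list had 5 higher and 1 lower of 10. The T cell list summed to 116, 110, 129 and 90.9 CPM against 30.2, 29.4, 37.4 and 34.2 CPM, mostly Il7r, with Trbc2 and Il7r higher of 10. The B and plasma cell list had 2 of 2 lower with Cd79a at 0, the dendritic cell list 3 of 5 lower, and the mast cell list 1 of 3 lower. Of the tumour and epithelial list, 3 of 12 genes were at 0, among them Epcam, the sum was 7.78, 4.66, 12.4 and 13.1 CPM against 3.44, 2.64, 4.94 and 6.83 CPM, and Areg was the 1 higher of 3 tested. Fibroblast genes had 1 higher and 1 lower of 7, endothelial genes 2 higher of 3 (0 on total UMIs), and NK cell and erythroid genes 0 of 5 and 0 of 3. The osteoclast-like list summed to 157, 123, 110 and 111 CPM against 66.8, 58.5, 101 and 79.1 CPM, with 2 genes higher of 6 (Atp6v0d2 and Dcstamp). The part of RNA from T cells, tumour cells or osteoclast-like cells in the results was not tested.

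Several readouts already differed below the top 10% of the score, though not every step went the same way. From macrophages with no UMI of the rule genes to those above the 95th percentile, the summed HIF list went from 1030 to 5161 CPM in control 1, 1060 to 6473 in control 2, 1072 to 5437 in liproxstatin 1 and 1071 to 5138 in liproxstatin 2. Arg1 reached 1298, 1633, 850.4 and 1156 CPM already between the 75th and 90th percentile, outside the population, and 3292, 3455, 2047 and 2600 CPM above the 95th. Nos2 sat higher on the scale, at 4.30, 9.07, 10.6 and 12 CPM between the 75th and 90th percentile and 66.3, 149, 105 and 77.5 CPM above the 95th. Cx3cr1 went from 280, 336, 338 and 305 CPM to 35.3, 19.3, 49.0 and 34.0 CPM, with a rise to 306 CPM in control 1 in the range next to no UMI, and the MHC class II sum from 13341, 12743, 14569 and 17075 CPM to 3966, 2859, 5802 and 6392 CPM. Mrc1 showed no such course, with 680 to 745 CPM at no UMI but liproxstatin 2 at 626, and 729 to 914 CPM at the top. The neutrophil sum was uneven, with 1001, 3455, 1020 and 502 CPM above the 95th percentile and 206 to 286 CPM between the 90th and 95th. Cells with no UMI were shallow in part, with median UMI counts of 1533, 13281, 6148 and 18849.

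**Figure D4:**
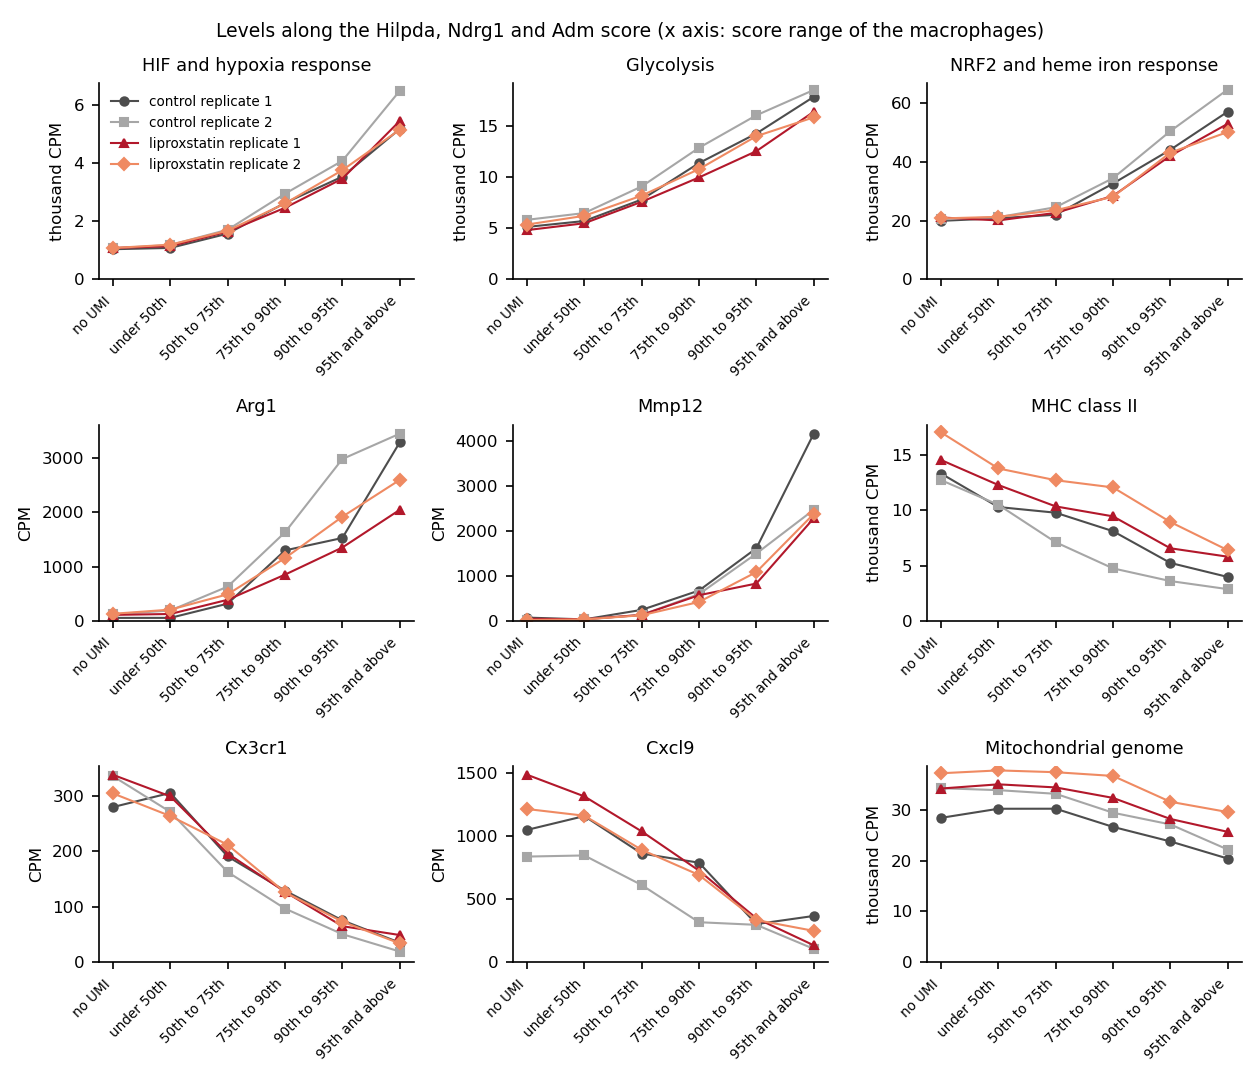
CPM (y axis from 0, linear, some panels in units of 1000 CPM) of gene lists and single genes in macrophages ordered by score range (x axis, percentiles over all macrophages), 1 line per library. HIF, glycolysis, NRF2, Arg1 and Mmp12 are higher at the right end than at the left in all 4 libraries, and MHC class II and Cx3cr1 are lower, with small steps the other way at the left end of some lines, as for Cx3cr1 in control 1.

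Liproxstatin was compared with control inside the hypoxic population, 2 libraries against 2. Of 10353 genes tested 87 were higher (0.84%) and 47 lower (0.454%), or 1.29% in either direction, at an adjusted p under 0.05, and 1434 (13.9%) had an unadjusted p under 0.05. Control and liproxstatin libraries were fully separated for 46.1% of all genes tested, so separation alone says little. The calls depended on the method: 34 of the 134 held in every fit that left out 1 library, and 1, Stk17b, held in all 16 other settings. On total UMIs the split was 93 higher and 11 lower, or 89.4% higher in place of 64.9%, with a shift of -0.06 log2 units.

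Inside the gate few genes of the hypoxia program were called changed by the drug. Cells of both groups had been chosen by the same cutoff on Hilpda, Ndrg1 and Adm, and the HIF list rose with that score. The choice of cells thus limits how far the program could differ, and the counts do not show whether the drug altered it. Of 28 HIF genes 0 were higher and 1 lower (median -0.22), of 16 glycolysis genes 0 passed (median -0.20), and of 14 NRF2 and heme genes, 11 genes that favour ferroptosis and 9 that defend against it 0 passed in each. The gene called lower was Selenbp1, a selenium-binding protein gene, with 120 and 169 CPM in control and 68.0 and 84.8 CPM in liproxstatin (-1.01 ± 0.17, adjusted p = 0.0312). Slc2a1 was at -0.21 ± 0.10 (adjusted p = 0.33), Bnip3 at -0.33 ± 0.11 (0.163) and Ldha at -0.23 ± 0.10 (0.305), none past the threshold, which does not show that they stayed the same. Vegfa had 228 and 216 CPM in control and 310 and 280 CPM in liproxstatin with no overlap, yet did not pass (0.34 ± 0.10, adjusted p = 0.0998). Slc7a11 had 21.3 and 35 CPM against 53.5 and 46.1 CPM (0.68 ± 0.17, adjusted p = 0.0636). Gpx4 had 481 and 442 CPM against 383 and 406 CPM (-0.29 ± 0.10, adjusted p = 0.184).

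None of the genes that led the description of these cells passed. Arg1 was at -0.58 ± 0.17 (adjusted p = 0.205), Hmox1 at -0.50 ± 0.15 (0.179) and Mmp12 at -0.66 ± 0.24 (0.346), and for Hmox1 liproxstatin 1 with 1790 CPM lay close to control 1 with 1872 CPM. Nos2 was at -0.15 ± 0.36 (0.916), Cd274 at -0.03 ± 0.26 (0.977) and Ptgs2 at 0.87 ± 0.52 (0.628). The groups overlapped for Nos2 and Cd274 and did not for Arg1, Hmox1, Mmp12 and Ptgs2. Of the rule genes, described without a test, Adm had 84.5 and 108 CPM in control and 60.7 and 52.6 CPM in liproxstatin, Hilpda 1029 and 963 against 1053 and 902, and Ndrg1 723 and 777 against 714 and 746.

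Several named genes changed, some of them at low levels. Wfdc17, a secreted antiprotease-like gene of macrophages, had 1907 and 2015 CPM in control and 1120 and 1110 CPM in liproxstatin (-0.88 ± 0.10, adjusted p = 4.74e-05), a call that passed in 15 of 16 other settings. Bhlhe41, a clock-related repressor, had 117 and 133 CPM against 67.9 and 72.9 CPM (-0.90 ± 0.11, adjusted p = 0.000105, 14 of 16 settings). The control libraries were the high ones for both. Tsc22d3, a gene induced by glucocorticoids, had 90.2 and 65.4 CPM in control and 134 and 142 CPM in liproxstatin (0.80 ± 0.14, adjusted p = 0.0126, 15 of 16 settings). Other macrophages showed the same direction for Tsc22d3 at 1.15, and the difference in response did not pass (adjusted p = 0.4). Of the 7 glucocorticoid-induced genes tested, 2 were higher, Tsc22d3 and Fkbp5. Tmcc3, an endoplasmic reticulum membrane gene, had 7.78 and 7.64 CPM against 30.6 and 27.8 CPM (1.87 ± 0.20, adjusted p = 3.65e-05), and the elongation factor gene Ell2 had 23.3 and 14.7 CPM against 49.3 and 37.2 CPM (1.24 ± 0.21, adjusted p = 0.0126).

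Other lists held few calls with treatment. In hypoxic cells 2 of 18 interferon genes were higher, Gbp5 and Irf1 (median 0.36), 2 of 13 checkpoint genes, Havcr2 and Cd38, 2 of 10 angiogenic genes, Pdgfb and Edn1, and 2 of 19 dissociation genes, Egr2 and Dnajb1. Havcr2 encodes the inhibitory receptor TIM-3 and Cd38 an enzyme that consumes NAD. Higher were also Mmp19 of 11 metalloproteinase genes and Acp5 of 6 osteoclast-like genes. Lower were Fabp4 of 15 lipid genes, the chemokine Ccl6 of 20 inflammatory genes (-0.57 ± 0.10, adjusted p = 0.00546), Igf1 of 13 genes of the Mrc1 list and Col3a1 of 6 fibroblast genes. In the arginine, stress response, macrophage identity, monocyte, respiratory, mitochondrial, cell cycle, neutrophil, T cell, B cell, dendritic, mast and endothelial lists 0 genes passed.

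The hypoxic cells of control 1 held 1928688 UMIs in all, and several of the remaining named genes rested on few molecules. Higher in liproxstatin were Apold1, Prf1, Ednrb, Areg, Klrd1, Nuak2, Spon1, Tagap, Rcan1 and Cyp51, with log2 fold changes from 1.15 to 2.36. Lower were Mirt1, Hist1h2ac, Hba-a1, Ciart, Tnfsf14, Hist1h2ap, Fam219a, Igf1 and Hist2h2aa1, with log2 fold changes from -2.40 to -0.83, and the histone and globin genes belong to families of near copies. Prf1 and Klrd1 are genes of cytotoxic lymphocytes, and the NK cell list summed to 9.33 and 6.71 CPM in control and 121 and 17.2 CPM in liproxstatin, with Ncr1 the 1 higher of 3 tested. The part of NK cell RNA in these calls was not tested.

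**Figure D5:**
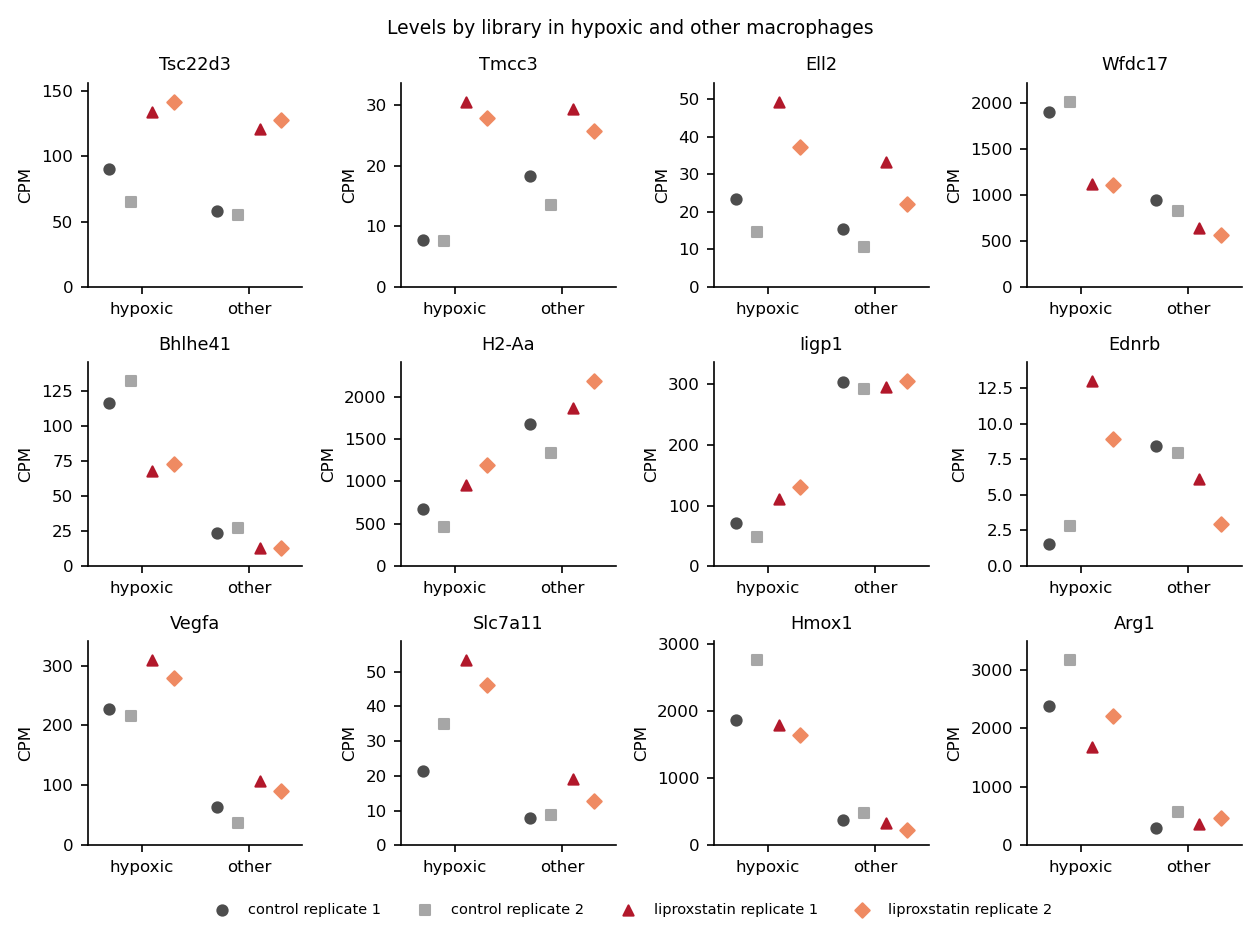
CPM (y axis from 0, linear) of 12 genes in hypoxic and other macrophages (x axis), 1 point per library, grey for control and red or orange for liproxstatin. In hypoxic cells Wfdc17 and Bhlhe41 are lower and Tsc22d3, Tmcc3 and Ell2 higher in both liproxstatin libraries, while Vegfa, Slc7a11, Hmox1 and Arg1 did not pass the test.

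Part of the MHC class II list was called different in its response between hypoxic and other macrophages, and few genes were in all. Of 12414 genes tested, the response was higher in hypoxic cells for 14 (0.113%) and lower for 25 (0.201%), or 0.314% in either direction, and 766 genes (6.17%) had an unadjusted p under 0.05. On total UMIs the split was 22 higher and 15 lower, or 59.5% higher in place of 35.9%, with a shift of -0.08 log2 units. Of 8 MHC class II genes 4 had a higher response, H2-Aa, H2-Ab1, H2-Eb1 and Cd74, the invariant chain that chaperones class II. H2-Aa had 670 and 461 CPM in control and 959 and 1196 CPM in liproxstatin within hypoxic cells, and 1682 and 1329 against 1864 and 2188 CPM in other macrophages. The response in hypoxic cells alone was 0.87 (adjusted p = 0.32) and in other macrophages 0.44 (adjusted p = 0.28), neither past the test, and the difference was 0.44 (adjusted p = 0.000288, passed in 13 of 16 other settings). The difference passed in 11 of 16 settings for H2-Eb1 and in 10 of 16 for H2-Ab1, and was lost for both without doublets and with thinned UMIs. For H2-Aa, H2-Eb1 and H2-Ab1 alike it was lost with the top 20% and with the top 10% within each library. It was also lost with replicate number as the block in place of library. Inside hypoxic cells the list had 1 gene higher of 8, H2-DMb1, with 55.5 and 54.6 CPM in control and 87.0 and 118 CPM in liproxstatin (0.83, adjusted p = 0.0126), and a median of 0.84. In other macrophages 0 of 8 passed, with a median of 0.45. Hypoxic cells stayed below the other macrophages of their own library in both groups.

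Other genes with a different response were few and varied. Bhlhe40 had 80.4 and 134 CPM in control and 94.9 and 78.4 CPM in liproxstatin within hypoxic cells, and 13.2 and 15.8 against 19.6 and 17.2 CPM in other macrophages (difference -0.75, adjusted p = 0.00204). Per1, a clock gene that glucocorticoids also induce, went from 9.76 and 7.55 to 27.2 and 24.2 CPM in other macrophages and from 24.9 and 19.0 to 30.3 and 30.9 CPM in hypoxic ones (difference -1.17, adjusted p = 0.000111). Iigp1 went from 71.6 and 48.4 to 110 and 130 CPM in hypoxic cells and stayed at 292 to 306 CPM in the others (difference 0.97, adjusted p = 2.69e-05). S100a8 and S100a9 had lower responses as well, and both were highest by far in hypoxic cells of control 2. Of the HIF list 2 of 31 had a lower response, Ddit4 and Bhlhe40, and of 15 NRF2 and heme genes 2, Fth1 and Ftl1. With the labels' replicate numbers as the block in place of library, 0 genes passed in this comparison. That fit ignores that both populations came from the same libraries, so its count cannot be laid to replicate pairing.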

How the data were processed

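Single-cell RNA was measured in 4 libraries of CD45+ cells. The authors deposited raw UMI counts per gene and barcode, already limited to cells. The matrices were written by Cell Ranger 6.1.1 per the file headers, although version 4 with mm10 is named per the submitters' processing notes. Counts of each gene were summed per library and population and tested with edgeR 4.0.16 in R 4.3.3 (filterByExpr, TMM scaling, robust quasi-likelihood fit, Benjamini-Hochberg adjustment over all genes tested, threshold 0.05). Library was a block in the comparison of populations and in the difference of responses, and the treatment test used hypoxic sums only. The 14 genes of the rule were left out of counts. DESeq2 1.42.0, other gates, scales and filters, and each library left out in turn were alternatives. Printed CPM use total UMIs, and fold changes use TMM.

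Named genes were the 20 highest and 10 lowest log2 fold changes past the threshold with at least 20 CPM and 1 sign in 4 libraries, without rule, ribosomal, mitochondrial and unnamed genes. For treatment and for responses they were up to 12 each way with at least 5 CPM. Up to 4 genes per list and a panel of 13 genes were added, and Vegfb, Irf1, Fos, Ndufa2, Il1b, Cxcl10 and further list members were chosen after their values were seen. The members, the 34 lists and the named panel were chosen with earlier results of these data known. Some genes of the lists and of the naming rule are not reported here. T cells were cells with at least 3 UMIs of Cd3d and Cd3e and under 1 UMI of C1qa, C1qb and C1qc per 10000. Likely doublets were scored with Scrublet in scanpy 1.11.5 at an assumed 0.8% per 1000 barcodes. On simulated counts with 200 changed genes, 2-fold changes were recovered for 88% of genes between populations, 71.5% for treatment and 56.5% for the difference of responses. In the same order 9, 8 and 1 unchanged genes were called. Simulated libraries differed only in depth, in those changes and in a spread set by level, so recovery in the real libraries may be lower.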

Additional observations from a re-analysis of the deposited data

Results flagged for a closer look

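For the genes named here the response to liproxstatin differed between hypoxic and other macrophages by a test of the difference itself (edgeR quasi-likelihood interaction, adjusted p under 0.05), and each value here is the log2 response in hypoxic minus that in other macrophages. The calls depended on the setting: of the 39 genes called, 1 was also called with the top 10% within each library. With the replicate block, which took the place of the library block, 0 were called. Rgs2 and Gcnt2 passed in 4 of 16 other settings, Mmp8 in 5 and Il7r in 6. The MHC class II genes H2-Eb1 (0.53), H2-Ab1 (0.45) and H2-Aa (0.44) and the interferon-induced Iigp1 (0.97) had higher responses in hypoxic cells. So did Ednrb (2.95), Il10 (2.89), Spon1 (1.26), Npl (1.1), Tmcc3 (0.96), Gigyf2 (0.91), Ccnd2 (0.55) and Rgs2 (0.43). Il10 rested on few UMIs, at 0.518 and 0.932 CPM in control and 17.9 and 6.45 CPM in liproxstatin.

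Lower responses were found for F3 (-1.36), the clotting initiator tissue factor, for the neutrophil-type transcripts S100a9 (-1.35), S100a8 (-1.25) and Mmp8 (-1.01), and for the clock-linked Per1 (-1.17), Bhlhe40 (-0.75) and Nfil3 (-0.73). The others were Gcnt2 (-0.98), Ddit4 (-0.76), Pim3 (-0.71) and Il7r (-0.63). S100a9 had 243 and 902 CPM in control and 254 and 149 CPM in liproxstatin within hypoxic cells, so control 2 stood apart. S100a8 passed in 9 of 16 other settings and S100a9 in 8. Both, and Mmp8 as well, were lost without doublets, with thinned UMIs and without the S100a8 and S100a9 carriers. The carrier setting picks cells by S100a8 and S100a9 themselves, and the part of control 2's neutrophil-type RNA in the S100a8, S100a9 and Mmp8 values was not tested. F3 was at 18.1, 11.9, 16.3 and 17.2 CPM in hypoxic cells and at 2.21, 1.13, 4.81 and 3.86 CPM in the others, where both liproxstatin libraries were the high ones.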

How the results depend on the processing

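Between populations, counts of higher and lower genes stayed within 1.5 times of 2665 and 2380 except on total UMIs (1688 and 4366) and, for lower genes, with thinned UMIs (1552). Genes lower by a log2 fold change of 1 or more numbered 122 with the top 20% and 461 on total UMIs, in place of 272. Of the calls in both directions 2484 held under every alternative.

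Treatment counts depended on most settings. Higher and lower genes in hypoxic cells, 87 and 47, became 25 and 13 with DESeq2, 251 and 130 without a count filter, 20 and 6 with the top 5%, 8 and 2 with the top 20%, 4 and 0 with the top 10% within each library, and 53 and 22 with thinned UMIs. Lower genes were 25 without doublets and 11 on total UMIs. Leaving out 1 library gave 104 to 326 higher and 38 to 183 lower genes, with 326 and 183 without control 1 and 164 and 174 without control 2. Lower genes were 77 without liproxstatin 1. The lone library left is assumed to vary like the other group.

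Differences of responses, 14 higher and 25 lower, became 4 and 12 with DESeq2, 26 and 47 without a count filter, 8 and 6 with the top 5%, 1 and 9 with the top 20%, 1 and 0 within each library, 5 and 7 with thinned UMIs, and 22 and 15 on total UMIs. Without doublets 9 were higher. Leaving out 1 library gave 9 to 54 higher and 28 to 131 lower. The cause of these shifts was not tested.

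Single values changed sign in a few settings. The S100a9 difference was 0.53 with thinned UMIs and 0.15 without S100a8 and S100a9 carriers, and that of S100a8 was 0.26 with thinned UMIs. The treatment value of Nos2 was 0.062 with the top 20% and 0.087 within each library, and -0.416 to 0.354 when 1 library was left out (0.354 without control 2, 0.108 without liproxstatin 2). That of Cd274 was 0.053 with the top 20%, 0.035 within each library, 0.08 with thinned UMIs, 0.092 without the carriers and 0.027 on total UMIs, and -0.307 to 0.403 when 1 library was left out (0.403 without control 2). The carrier and total-UMI settings were chosen after seeing the data.

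The share difference was 4.70 percentage points with the top 20% and 0.699 with the top 5%. It ran from 0.0278 to 3.48 percentage points when 1 library was left out, lowest without control 1. The top 10% within each library fixes the share and gives no value.

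The labels' replicate numbers did not pair the libraries: deviations of same-numbered libraries correlated at -0.028 over 10364 genes. With the replicate block 154 genes were higher and 112 lower with treatment, 0 and 0 differed in response, Cd274 was at 0.022 and the share difference was 1.76. For responses that block replaced the library block, so the pairing of populations within a library was not used.

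Control 1 gave 96 hypoxic cells, the fewest of the 4 libraries.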
